A study of Mus musculus with 39 samples.

Results

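Proline is made and broken down by a small set of enzymes, and 5 of their genes were followed here in mouse neuroblastoma: Aldh18a1, Pycr1, Oat, Prodh and Aldh4a1. They are 5 of the 20333 transcript rows of the deposited count table, picked by gene symbol alone, and each symbol matched 1 row. The tumors came from TH-MYCN mice, in which the human MYCN oncogene is driven by the tyrosine hydroxylase promoter, so that tumors arise from cells of the sympathetic lineage. The labels give the genotype as MYCN Amplified and strain, sex and age are not used here. Of 20 mice, 5 ate a diet lacking proline and arginine and also received difluoromethylornithine (DFMO), an irreversible inhibitor of ornithine decarboxylase, the first enzyme of polyamine synthesis (below, diet with DFMO). Another 5 received DFMO on the control diet (DFMO), 5 ate the diet lacking both amino acids without the drug (diet), and 5 ate the control diet without the drug (control). Ribosome-protected fragments (footprints, which count ribosomes on coding sequence) were sequenced from all 20 tumors, and RNA-seq of the same extracts was used from 19, with 4 control tumors.

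Proline synthesis from glutamate starts with Aldh18a1, the bifunctional enzyme (P5CS) that makes pyrroline-5-carboxylate, and ends with the reductases, of which Pycr1 is the mitochondrial one best known in tumors. Ornithine aminotransferase, encoded by Oat, joins the same intermediate to ornithine, and so ties proline to arginine and to the ornithine that feeds polyamine synthesis. Breakdown runs the other way in mitochondria: proline dehydrogenase (Prodh) oxidises proline to pyrroline-5-carboxylate, and Aldh4a1 turns that into glutamate. Prodh is known as a p53 target, while Aldh18a1 and Pycr1 are counted among the targets of ATF4, the transcription factor of the amino acid response, and of MYC.

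All 5 genes sit on different chromosomes of GRCm38: the measured Aldh18a1 transcript spans chr19:40550257-40588463, Pycr1 chr11:120635712-120643670, Oat chr7:132557478-132576398 and Prodh chr16:18071725-18089292, all on the minus strand, and Aldh4a1 spans chr4:139622866-139649690 on the plus strand. The promoters of the 2 genes whose footprints passed a test below are shown because each holds a motif that was searched for. The windows run from 250 bases before to 50 bases after the gene start (RefSeq, GRCm38.p6) and are written along the gene's strand, chr19:40588414-40588713 for Aldh18a1 and chr11:120643699-120643998 for Pycr1. Capitals mark the E-box CACGTG, a site type bound by MYC-family factors, in Aldh18a1, and the ATF4 composite element TGATGNAAT in Pycr1.

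Aldh18a1: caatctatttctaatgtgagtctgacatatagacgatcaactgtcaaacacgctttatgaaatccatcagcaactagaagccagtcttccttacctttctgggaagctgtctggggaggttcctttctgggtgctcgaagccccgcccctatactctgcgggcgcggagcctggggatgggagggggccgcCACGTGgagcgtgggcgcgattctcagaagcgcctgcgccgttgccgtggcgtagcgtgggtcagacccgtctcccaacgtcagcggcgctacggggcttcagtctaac
Pycr1: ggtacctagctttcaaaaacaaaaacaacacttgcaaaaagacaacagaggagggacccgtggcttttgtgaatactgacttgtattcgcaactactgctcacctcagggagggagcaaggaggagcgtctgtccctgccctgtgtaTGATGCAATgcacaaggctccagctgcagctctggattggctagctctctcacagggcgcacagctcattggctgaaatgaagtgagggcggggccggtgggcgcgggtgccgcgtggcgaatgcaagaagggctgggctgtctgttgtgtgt

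The first base of the E-box lay 59 bases before the RefSeq start of Aldh18a1. That of the composite element lay 103 bases before the RefSeq start of Pycr1. The measured Pycr1 transcript begins further along, at chr11:120643670 on the minus strand. Its whole window, chr11:120643699-120643998, therefore lies before that start. Searched on both strands, the composite element was in 150 of 19443 RefSeq promoter windows (0.771%) and the E-box in 1598 (8.22%). Neither was in the windows of Oat, Prodh and Aldh4a1, and no other copy of either was in the 2 windows shown. The 2 motifs do not overlap in any member, since each window held at most 1 of them. A match is a stretch of letters and says nothing of binding in these tumors.

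The footprint libraries held 2137838 to 12409644 counts and 13517 to 15321 transcripts with a count, and the RNA libraries held 10005384 to 51538191. RNA of 4 tumors was of low complexity, with 8806 to 13387 transcripts detected and 39.8% to 51.5% of counts on ribosomal protein genes, against 14977 to 16317 transcripts and 21.9% to 33.0% in the other 15. These 4 were control mice C5696, C5778 and C5781 and diet mouse P5828, so a single control RNA library (C5812) was not of this kind. Each edgeR RNA or ratio call against control is given with and without them. In 11 of the 19 RNA libraries the footprints of some other mouse were nearer than those of the same mouse. Outside the 4 of low complexity this was most marked in DFMO mice D5823 and D135 and diet with DFMO mouse PD5732, where at least 6 other mice were nearer, and these 3 are called unlike their own footprints. All 12 neuroblast markers, among them Hand2, Th and Mycn, were detected in the footprints of every group, with summed levels of 2281 to 3080 CPM (counts scaled to a common library total) in diet with DFMO, 2347 to 2891 in DFMO, 2464 to 2843 in diet and 2813 to 3738 in control tumors. In whole tumors, fewer cells of a type and less RNA or fewer ribosomes per cell cannot be told apart.

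Per coding length, the synthesis enzymes were far above the breakdown enzymes. Footprints of Aldh18a1 had a median of 59.6 deposited RPKM over the 20 libraries (37.4 to 81.0), Oat 47.9 (32.1 to 62.7), Pycr1 18.3 (12.1 to 31.7), Aldh4a1 2.75 (0.530 to 7.22) and Prodh 0.957 (0.307 to 3.38). Within a library, Aldh18a1 ranked first in 17 of 20 and Oat in the other 3 (PD5805, D5747 and D5802), so that the top pair changed places within their spread. Pycr1 was the third in all 20, and Aldh4a1 was above Prodh in 19. In RNA the medians over 19 libraries were 26.3 RPKM for Oat, 22.7 for Aldh18a1, 13.2 for Pycr1, 1.74 for Aldh4a1 and 1.57 for Prodh, with Oat first in 11 libraries and Aldh18a1 in 8. Both the RNA medians and ranks include the 4 low-complexity libraries. There Aldh18a1 was first in C5781, where Oat had no count, and in P5828 (4.23 RPKM, Oat 3.72). Oat was first in C5696 and C5778. The lowest pair overlapped widely in RNA (up to 3.29 RPKM for Aldh4a1 and up to 2.07 for Prodh).

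**Figure D1:**
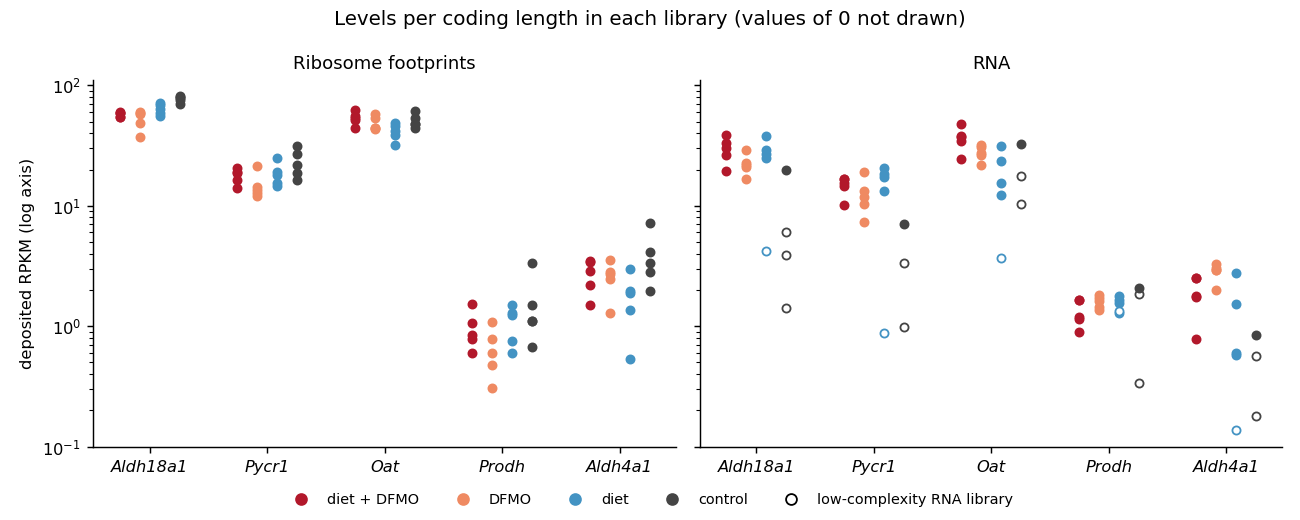
Deposited RPKM (log axis) of the 5 genes in each footprint library (left) and RNA library (right), coloured by group, with open circles for the 4 RNA libraries of low complexity. Footprint medians run from 59.6 for Aldh18a1 to 0.957 for Prodh, and the open circles lie low for Aldh18a1 and Pycr1.

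Fewer ribosomes were found on Aldh18a1, the entry enzyme of proline synthesis, in both groups that received DFMO. Its footprints stood at 140.2, 136, 134, 122 and 121 CPM in the 5 tumors of diet with DFMO, and at 76.0, 110.4, 149, 151 and 144 CPM in DFMO tumors. They were 184, 148, 144, 166 and 178 CPM in diet tumors and 184, 166, 186, 191 and 190.5 CPM in control tumors. Every tumor of both DFMO-treated groups was below every control tumor, diet with DFMO was also below every diet tumor, and diet tumors overlapped the controls. D5747 was the lowest of the 20, and DFMO tumors had the widest spread (126 ± 32.4 CPM, SD, n = 5).

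In one edgeR quasi-likelihood fit over the 20 footprint libraries and 12095 genes, with Benjamini-Hochberg adjustment, Aldh18a1 fell by 0.54 on the log2 scale in DFMO against control (SE 0.14, fold 0.687, adjusted p = 0.00969). In diet with DFMO against control it fell by 0.49 (SE 0.14, fold 0.712, adjusted p = 0.00879). Both calls held when each of the 20 mice was left out (adjusted p up to 0.0302 and 0.0241), in DESeq2 and on RPKM. Sequencing depth moved with the groups, with 4701856 to 12409644 footprint counts in diet with DFMO, 5127567 to 9036088 in DFMO, 3353371 to 8228409 in diet and 2137838 to 4570191 in control tumors, and its part in these differences was not tested. In diet against control the log2 difference was -0.16 (SE 0.14, adjusted p = 0.735), and in diet with DFMO against diet it was -0.33 (SE 0.14, adjusted p = 0.0699). Without D5747, which belongs to neither of those groups but enters the shared spread, the last comparison passed (log2 -0.33, adjusted p = 0.0111).

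Pycr1, which completes the synthesis, was also lowest in DFMO tumors. Its footprints were 14.0, 16.8, 17.0, 16.3 and 14.2 CPM in diet with DFMO, 10.1, 11.9, 20.7, 14.7 and 11.5 CPM in DFMO, 24.9, 14.1, 18.1, 19.3 and 15.8 CPM in diet, and 28.8, 24.6, 15.7, 17.1 and 20.1 CPM in control tumors. All 4 groups overlapped, and the lowest controls, C5781 and C5812, lay within the range of the treated tumors. The fall in DFMO against control was 0.63 (log2, SE 0.19, fold 0.647, edgeR adjusted p = 0.0282). Leaving out C5696, C5778, D5747, D5802 or D135 ended this call (adjusted p of 0.0615 to 0.0901), and the other 15 mice could each be left out. In diet with DFMO against control the log2 difference was -0.44 (SE 0.19, adjusted p = 0.0858).

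Oat, the link to ornithine, had level footprints in the group means. It averaged 66.7 ± 3.52 CPM in diet with DFMO, 63.3 ± 3.37 in DFMO, 59.1 ± 9.14 in diet and 66.8 ± 7.77 CPM in control tumors (SD, n = 5 each), and all groups overlapped. Its log2 difference from control was 0.00 in diet with DFMO (SE 0.10, adjusted p = 0.998), -0.08 in DFMO (SE 0.10, adjusted p = 0.644) and -0.17 in diet (SE 0.10, adjusted p = 0.593). Set against Oat within the same library, a measure that needs no scaling between libraries, Aldh18a1 footprints per length stood at 1.23, 1.07, 1.15, 0.956 and 1.02 times Oat in diet with DFMO. The ratio was 0.646, 0.904, 1.34, 1.31 and 1.35 in DFMO, 1.86, 1.28, 1.73, 1.51 and 1.41 in diet and 1.29, 1.32, 1.58, 1.81 and 1.69 in control tumors. Diet with DFMO lay below every diet and control tumor, while the 3 highest DFMO tumors overlapped the controls.

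**Figure D2:**
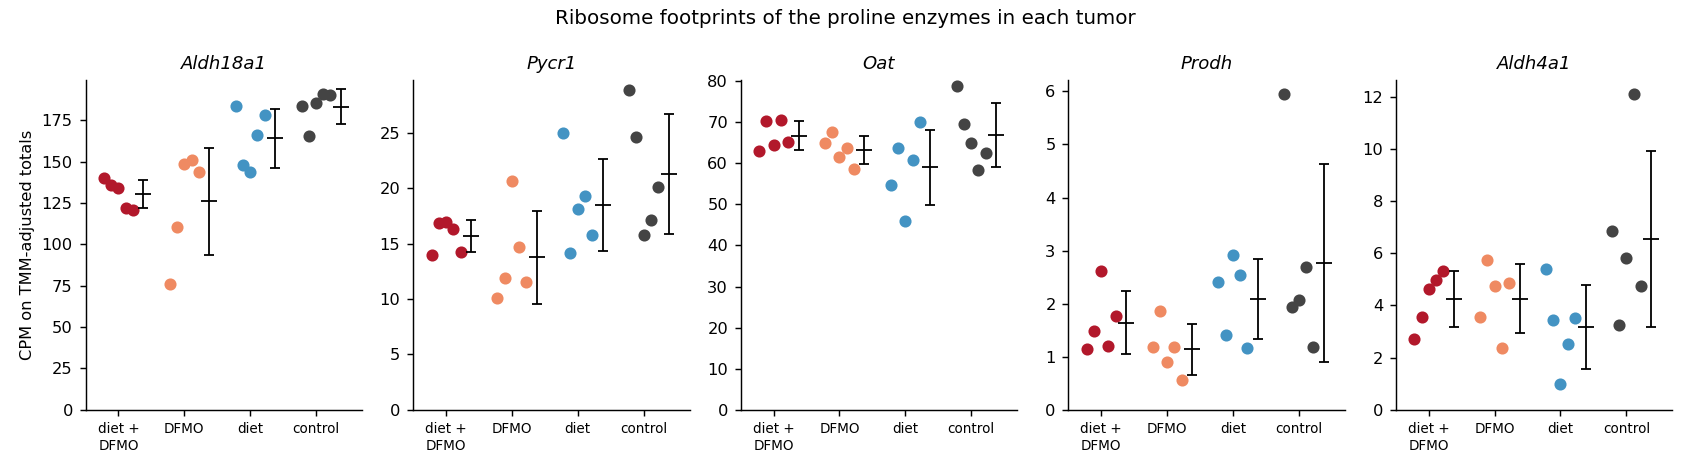
Footprint CPM on TMM-adjusted totals of the 5 genes, 1 point per tumor (n = 5 per group), with the mean and SD in black beside each group. Aldh18a1 lies at 121 to 140.2 CPM in diet with DFMO and at 166 to 191 CPM in control tumors, while Oat overlaps in all 4 groups.

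The breakdown enzymes gave few footprints, and none of their differences from control passed in edgeR with all 20 libraries. Prodh rested on 4 to 22 counts per library, with 1.64 ± 0.596 CPM in diet with DFMO, 1.14 ± 0.476 in DFMO, 2.09 ± 0.756 in diet and 2.77 ± 1.86 CPM in control tumors (SD, n = 5 each). The log2 difference in DFMO against control was -1.24 (SE 0.44, edgeR adjusted p = 0.0509). DESeq2 called it (adjusted p = 0.0449), and so did edgeR without C5840 or without D5802 (adjusted p = 0.0352 and 0.0431). Control mouse C5696 alone was at 5.95 CPM, against 1.18 to 2.69 CPM in the other controls, and without it the difference was -0.81 (adjusted p = 0.223). C5696 also had the highest summed level of the 12 liver and kidney markers (803 CPM), and the tumor highest in those markers had the most Prodh footprints in 3 of the 4 groups (PD5746 at 341 CPM, D5802 at 561 CPM, C5696). That list ranged from 36.3 to 341 CPM in diet with DFMO, 17.6 to 561 in DFMO, 16.1 to 46.3 in diet and 41.0 to 803 CPM in control tumors, with Aqp2 at 0 in every group, Umod at 0 in DFMO and Kap at 0 in diet tumors. In RNA of these 3 groups the list was highest in PD5825 (72.3 CPM), D5802 (8.12 CPM) and C5778 (8.87 CPM). PD5746 was at 7.99 CPM and C5696 at 4.47 CPM there. The part of this list in the Prodh values was not tested.

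Aldh4a1 footprints rested on 3 to 46 counts per library. They averaged 4.25 ± 1.08 CPM in diet with DFMO, 4.26 ± 1.31 in DFMO, 3.17 ± 1.62 in diet and 6.55 ± 3.38 CPM in control tumors (SD, n = 5 each), with C5812 highest at 12.1 CPM. The log2 differences from control were -0.61 (adjusted p = 0.185), -0.61 (adjusted p = 0.230) and -1.02 (adjusted p = 0.291), in the order diet with DFMO, DFMO and diet, with SE of 0.35 to 0.37.

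Counted together, 2 of the 5 genes fell and none rose in DFMO against control, where 18.1% of all genes tested passed and 8.84% passed as lower. In diet with DFMO against control, 1 of 5 fell, against 32.2% of all genes called and 15.5% called lower. The median log2 difference of the 5 was -0.61 in DFMO and -0.49 in diet with DFMO, beside medians of 0.02 and 0.02 over all genes. In diet against control no member and no gene passed in edgeR (0% called). At an unadjusted p below 0.05, 1312 genes and 1 member (Aldh4a1) passed there, and DESeq2 and limma called no member.

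No member passed among treated groups in edgeR footprints: 0 of 5 in diet with DFMO against DFMO (3.22% of all genes called), 0 of 5 in diet with DFMO against diet (28.8%) and 0 of 5 for the interaction of diet and DFMO (0.372%). At an unadjusted p below 0.05 the members counted 0, 1 (Aldh18a1) and 0, and DESeq2 called none. On RPKM, limma called Oat higher in diet with DFMO than in diet (log2 0.37, adjusted p = 0.0358; edgeR log2 0.17, SE 0.10, adjusted p = 0.224). The control and treated tumors are shared between these comparisons, so their values are not independent of each other.

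Markers of other cell types also moved with the groups. The 7 erythroid markers (globins, Alas2 and Slc4a1 among them) summed to 2653 to 13246 footprint CPM in diet with DFMO, 784 to 1914 in DFMO, 13295 to 45018 in diet and 3663 to 13434 CPM in control tumors. The 8 macrophage markers summed to 436 to 573, 507 to 593, 530 to 744 and 653 to 952 CPM in the same order, with 7 of 8 lower in diet with DFMO and 6 of 8 lower in DFMO against control. Over all genes, 15.5% and 8.84% were called lower in those comparisons. Of the 12 neuroblast markers, 1 was higher and 6 were lower in diet with DFMO, and 0 were higher and 2 lower in DFMO. The 6 pancreas markers measured summed to 126 to 1225 CPM in diet with DFMO, 5.66 to 27.1 in DFMO, 2.63 to 35.2 in diet and 26.5 to 852 CPM in control tumors, with none at 0. The part of these marker lists in the Aldh18a1 and Pycr1 differences was not tested.

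In RNA of the same tumors no member fell against control in edgeR. Aldh18a1 RNA stood at 55.2, 58.7, 66.6, 62.2 and 46.5 CPM in diet with DFMO and 30.2, 46.1, 53.1, 37.5 and 41.3 CPM in DFMO tumors. It was 56.6, 62.1, 61.7, 60.2 and 23.1 CPM in diet and 19.8, 18.3, 8.27 and 46.4 CPM in control tumors. The low values were those of the low-complexity libraries: the 3 lowest controls and P5828. The 1 other control library, C5812, lay among the treated tumors, level with the lowest tumor of diet with DFMO (46.4 and 46.5 CPM).

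With all 19 libraries (14280 genes), Aldh18a1 RNA was 1.30 higher on the log2 scale in diet with DFMO than in control (SE 0.36, edgeR adjusted p = 0.00828). Without the 4 low-complexity libraries the difference was 0.30 (adjusted p = 0.434). Pycr1 RNA was 1.76 higher (SE 0.59, adjusted p = 0.0223), and 0.81 higher without those libraries (adjusted p = 0.177). Leaving out C5778 alone ended that call (log2 1.56, adjusted p = 0.0760), as did leaving out the 3 libraries unlike their own footprints (log2 1.70, adjusted p = 0.0660). Pycr1 averaged 11.3 ± 1.43 CPM in diet with DFMO, 9.08 ± 3.41 in DFMO and, without P5828, 13.9 ± 2.33 CPM in diet tumors (SD, n = 5, 5 and 4), against 6.39 CPM in C5812 and 0 to 4.22 CPM in the 4 low-complexity libraries. C5781 had no Pycr1, Oat, Prodh or Aldh4a1 count at all. These 2 calls of 5 members stood beside 40.8% of all genes called and 23.1% called higher, and the median gene was 0.31 higher.

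Aldh4a1 RNA was 1.86 higher in DFMO than in control (log2, SE 0.58, adjusted p = 0.0160), the 1 member called there, where 39.5% of genes passed, 21.9% as higher, and the median gene was 0.28 higher. It stood at 2.56, 4.55, 4.29, 3.56 and 3.89 CPM in DFMO and at 0.414, 1.89, 0 and 1.39 CPM in control tumors, so that these groups did not overlap. The 7 Schwann and glia markers measured also moved with these groups in RNA, 6 higher and 1 lower in DFMO, with summed levels of 36.2 to 108 CPM in DFMO and 3.48 to 15.6 CPM in control tumors (Foxd3 at 0 in controls), and their part in the Aldh4a1 difference was not tested. Without the low-complexity libraries, which leaves C5812 as the single control, the difference was 1.43 (adjusted p = 0.135). Leaving out C5696 alone also ended the call (log2 1.61, adjusted p = 0.0514), as did leaving out the 3 libraries unlike their own footprints (log2 1.88, adjusted p = 0.0707). Aldh18a1 and Pycr1 RNA differed there by 0.83 (SE 0.36, adjusted p = 0.0709) and 1.44 (SE 0.58, adjusted p = 0.0545), and DESeq2 called both higher. In diet against control 0 of 5 members passed in edgeR (3.40% of genes called, and 2 members at an unadjusted p below 0.05). DESeq2 called Aldh18a1 (log2 1.23, adjusted p = 0.0113) and Pycr1 (log2 1.90, adjusted p = 0.00918) higher in diet. All DESeq2 fits included the low-complexity libraries. Across the 8 other settings, log2 values in diet ranged from 0.37 to 1.94 (Aldh18a1) and 1.11 to 2.93 (Pycr1). In DFMO they ranged from -0.16 to 2.07 and from 0.50 to 3.22. The -0.16 of Aldh18a1 was the edgeR value without the low-complexity libraries.

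**Figure D3:**
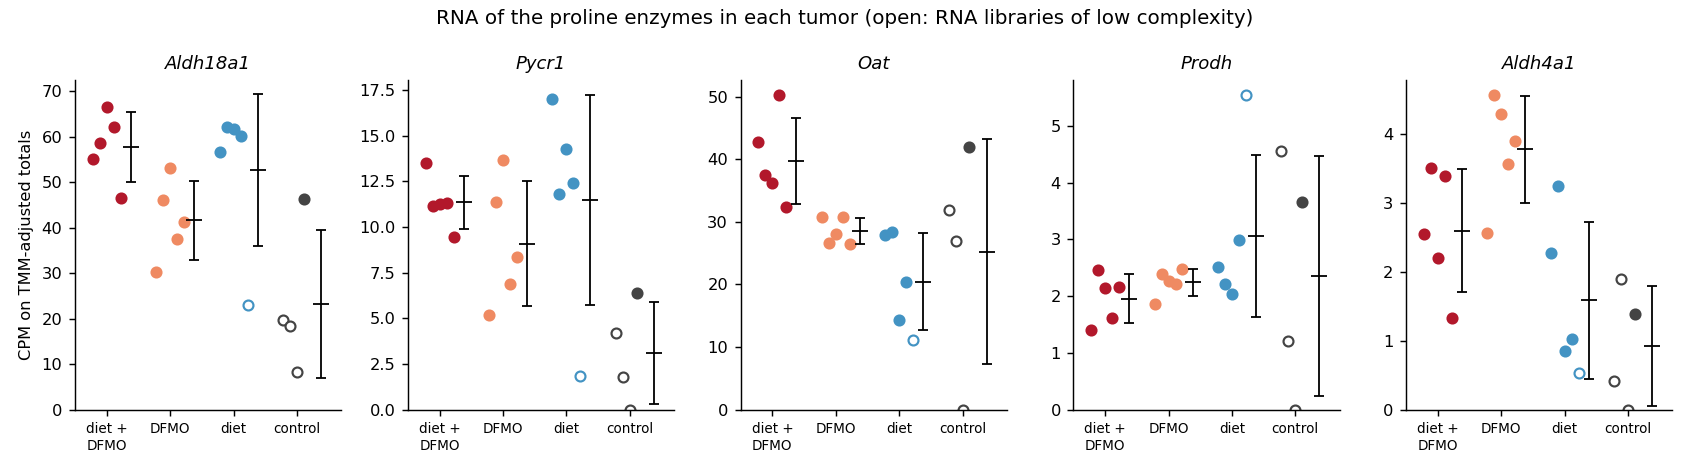
RNA CPM on TMM-adjusted totals of the 5 genes, 1 point per tumor, open circles for the 4 low-complexity libraries, with the mean and SD of all libraries in black (n = 5, 5, 5 and 4). The open circles hold the lowest Aldh18a1 and Pycr1 values, 8.27 to 23.1 CPM and 0 to 4.22 CPM, and Oat is higher in diet with DFMO than in every diet tumor.

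Oat RNA showed a difference among treated tumors, a comparison that holds no control tumor, though control libraries enter the spread the fit shares. It was 42.7, 37.4, 36.2, 50.2 and 32.4 CPM in diet with DFMO, 30.7, 26.6, 28.0, 30.7 and 26.4 CPM in DFMO, and 27.8, 28.3, 14.4, 20.5 and 11.2 CPM in diet tumors, P5828 being the last. Every tumor of diet with DFMO was above every tumor of the other 2 treated groups. The 6 pancreas markers moved the same way in RNA, all 6 higher in diet with DFMO than in either group, with summed levels of 31.0 to 400.2 CPM in diet with DFMO, 9.78 to 19.03 in DFMO and 8.95 to 27.0 CPM in diet tumors and none at 0, and their part in the Oat difference was not tested. In the fit of all libraries the log2 difference from diet was 0.96 (SE 0.54, adjusted p = 0.235), and no member passed in diet with DFMO against diet (17.7% of genes called), against DFMO (5.13%) or for the interaction (5.94%). DESeq2 called none there either, and no member had an unadjusted p below 0.05. Without the 4 low-complexity libraries, whose spread the fit shares, Oat was 0.80 higher than in diet (adjusted p = 0.00187) and 0.46 higher than in DFMO (adjusted p = 0.0469), and Aldh18a1 was 0.46 higher than in DFMO (adjusted p = 0.0246). Without all 7 doubted libraries (these 4 and the 3 unlike their own footprints), 0 members passed against DFMO, and Oat passed against diet (log2 0.77, adjusted p = 0.0127). Leaving out C5781 alone, the library with no Oat count, gave a difference from diet of 0.95 (adjusted p = 0.00438).

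Prodh RNA averaged 1.96 ± 0.434 CPM in diet with DFMO, 2.24 ± 0.241 in DFMO and 2.44 ± 0.413 in the 4 diet tumors other than P5828 (SD, n = 5, 5 and 4), and was 3.66 CPM in C5812. P5828 was at 5.54 CPM. Against control its log2 difference was -0.36 in diet with DFMO (adjusted p = 0.589), -0.17 in DFMO (adjusted p = 0.814) and 0.25 in diet (adjusted p = 0.771), with SE of 0.51 to 0.52.

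Footprints relative to RNA, the usual measure of translational efficiency, passed as lower than control for Aldh18a1 and Pycr1 in all 3 treated groups and for Aldh4a1 in both DFMO-treated groups. Of the 4 control RNA libraries behind these calls, 3 were of low complexity. A fit without them keeps 1 control RNA library and cannot tell a lost difference from lost precision. The log2 ratio of Aldh18a1 was 1.35, 1.21, 1.01, 0.98 and 1.38 in diet with DFMO, 1.33, 1.26, 1.49, 2.01 and 1.80 in DFMO, 1.70, 1.26, 1.22, 1.47 and 2.95 in diet and 3.21, 3.17, 4.48 and 2.05 in control tumors. The 4 ratios above 2.9 were those of the 4 low-complexity RNA libraries, and C5812 at 2.05 was just above the highest of the other treated tumors, D5823 at 2.01. For Pycr1, diet with DFMO lay at 0.08 to 0.62, DFMO at 0.10 to 1.12, diet without P5828 at 0.28 to 0.66 and C5812 at 1.44, whereas P5828 was at 3.08, C5696 at 2.77 and C5778 at 3.74.

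In an edgeR fit over all 39 libraries (11847 genes), where the assay and the group interact, Aldh18a1 was lower than control by a log2 difference of -1.76 in diet with DFMO (SE 0.36, adjusted p = 0.000985), -1.33 in DFMO (SE 0.36, adjusted p = 0.00555) and -1.28 in diet (SE 0.36, adjusted p = 0.0328). Pycr1 was lower by -2.15 (SE 0.57, adjusted p = 0.00616), -2.01 (SE 0.57, adjusted p = 0.00763) and -1.93 (SE 0.57, adjusted p = 0.0396) in the same order. Aldh4a1 passed in diet with DFMO (log2 -1.89, SE 0.65, adjusted p = 0.0280) and in DFMO (log2 -2.41, SE 0.65, adjusted p = 0.00557). So 3, 3 and 2 of 5 members fell, in the order diet with DFMO, DFMO and diet, beside 30.5%, 33.6% and 6.03% of all genes called and 16.7%, 18.3% and 4.60% called lower, with the median gene at -0.23, -0.21 and -0.21.

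None of these 8 calls passed without the 4 low-complexity RNA libraries, though the 8 differences stayed negative. Aldh18a1 was then at -0.81 in diet with DFMO (adjusted p = 0.0841), -0.40 in DFMO (adjusted p = 0.372) and -0.53 in diet (adjusted p = 0.341), and Pycr1 at -1.27 (adjusted p = 0.0750), -1.15 (adjusted p = 0.0779) and -1.32 (adjusted p = 0.118). Aldh4a1 was at -1.51 in diet with DFMO (adjusted p = 0.225) and -2.06 in DFMO (adjusted p = 0.0680). With the mouse as a block, the diet calls also ended, for Aldh18a1 (log2 -1.44, adjusted p = 0.0572) and Pycr1 (log2 -2.11, adjusted p = 0.0742). They ended too when C5840, the control with footprints alone, was left out without a block (adjusted p = 0.0507 and 0.0557). Oat and Prodh passed in no comparison with control in the main edgeR fit. Of 11 other settings, 2 called Prodh in DFMO (log2 -2.39 to -0.51 over the 11). Oat was called in 1 of them in DFMO (-2.54 to 0.47) and in 2 in diet with DFMO (-2.78 to 0.10). Among treated groups 0 of 5 members passed (0% of genes called in diet with DFMO against DFMO, 0.734% against diet and 0.777% for the interaction). At an unadjusted p below 0.05 there were 0, 0 and 2 members (Aldh4a1 and Pycr1, both for the interaction), and DESeq2 called none. Leaving out C5812 keeps only the 3 low-complexity control RNA libraries. That edgeR fit called 2 members for the interaction (Aldh18a1 at 1.40, adjusted p = 0.0356, and Pycr1 at 2.43, adjusted p = 0.0414). Without P5828, edgeR called Pycr1 for the interaction (log2 1.98, adjusted p = 0.0419).

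**Figure D4:**
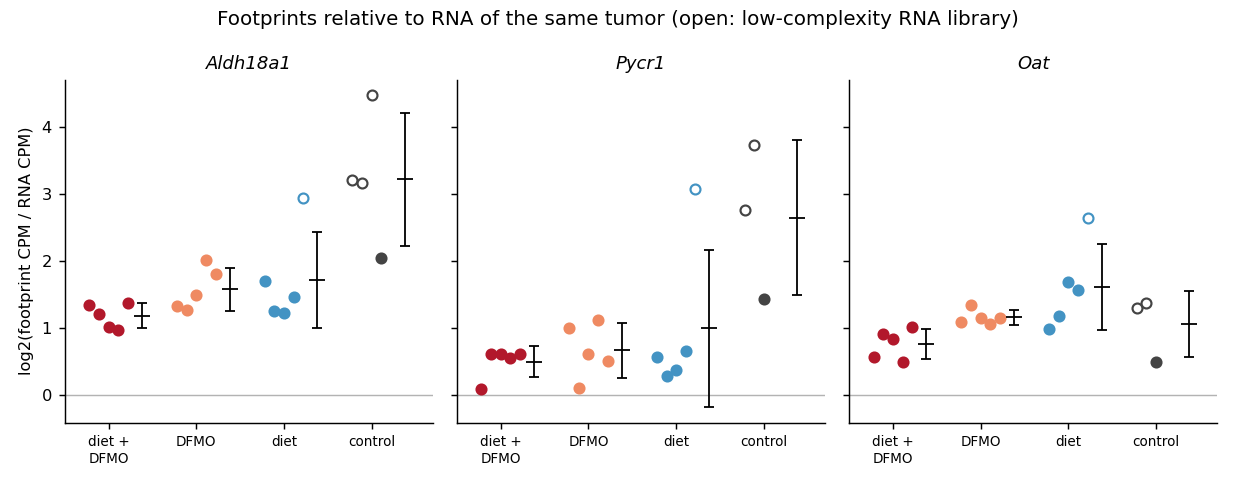
Log2 ratio of footprint CPM to RNA CPM of the same tumor for Aldh18a1, Pycr1 and Oat, open circles for low-complexity RNA libraries, with mean and SD in black. Tumors with no RNA count (C5781 for Pycr1 and Oat) are left out. The open circles stand above the filled ones for Aldh18a1 and Pycr1, and C5812, the filled control, is at 2.05 and 1.44.

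**Figure D5:**
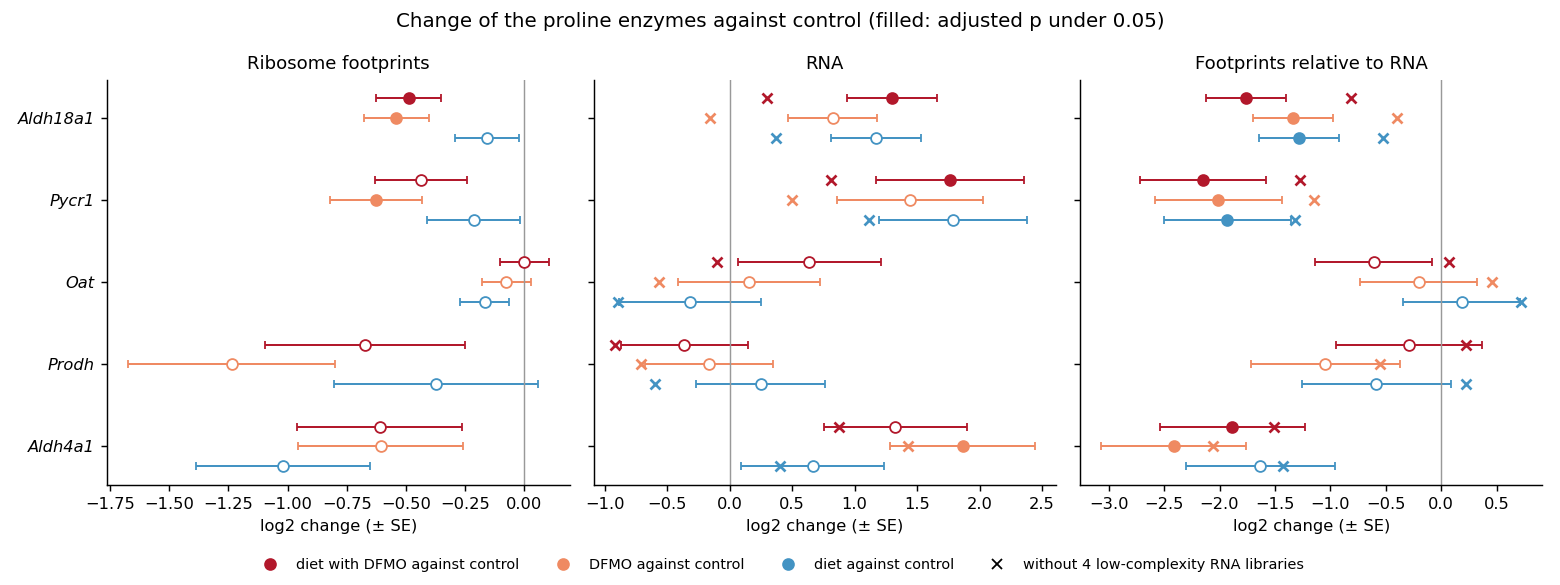
Log2 change against control (± SE) in footprints, RNA and their ratio, filled where the adjusted p is under 0.05, with crosses for the value without the 4 low-complexity RNA libraries. The footprint panel holds 3 filled points (Aldh18a1 at -0.49 and -0.54, Pycr1 at -0.63), and the crosses of Aldh18a1 and Pycr1 lie nearer 0 than the points in the other panels.

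Pycrl, the cytosolic reductase, and Nadk2, the mitochondrial NAD kinase that supplies NADP there, were lower in the same comparison as Aldh18a1. In footprints Pycrl was at 25.0 ± 2.49 CPM in diet with DFMO and 31.3 ± 5.12 CPM in control tumors (log2 -0.33, SE 0.12, edgeR adjusted p = 0.0445). Nadk2 was at 11.2 ± 1.89 CPM in diet with DFMO and 18.8 ± 2.70 CPM in control tumors (log2 -0.74, SE 0.15, adjusted p = 0.000651; SD, n = 5 each). In DFMO against control Nadk2 fell as well, to 13.4 ± 1.41 CPM (log2 -0.49, adjusted p = 0.0231), and Pycrl was at -0.30 (adjusted p = 0.0949). Prodh2, the hydroxyproline dehydrogenase, had 1 footprint count in all of diet with DFMO, 5 in DFMO, 2 in diet and 0 in control tumors, and was not tested.

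Around the pathway, the counts were mixed. Of 15 genes tested that supply or use proline, 2 rose and 6 fell in footprints of diet with DFMO against control (median log2 -0.21, all genes 0.02), beside 32.2% of all genes called and 15.5% called lower. In DFMO 0 rose and 4 fell (median -0.18), beside 18.1% called and 8.84% called lower. Among them, Eprs, which charges tRNA with glutamate and proline, was at 314 ± 24.8 CPM in diet with DFMO, 374 ± 35.8 in DFMO and 454 ± 30.8 CPM in control tumors (log2 -0.53, adjusted p = 0.000287, for diet with DFMO). Pepd, which frees proline from dipeptides, was at 31.8 ± 2.70, 33.1 ± 2.52 and 46.9 ± 5.04 CPM (log2 -0.56, adjusted p = 0.000487), and P4hb, a subunit of prolyl 4-hydroxylase, at 200.1 ± 6.37, 198 ± 9.37 and 254 ± 10.1 CPM (log2 -0.35, adjusted p = 0.00122; SD, n = 5 each). Prep, the prolyl endopeptidase, had a log2 difference of -0.43 (adjusted p = 0.00427).

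At the glutamate node 1 of 12 genes rose and 3 fell in diet with DFMO against control, close to the 32.2% of all genes called there, and 1 rose and 3 fell in DFMO, beside 18.1%. The transporter Slc1a5, which carries glutamine, was at 7.86 ± 1.22 CPM in diet with DFMO, 7.03 ± 2.04 in DFMO and 14.5 ± 3.73 CPM in control tumors (SD, n = 5 each; log2 -0.87, adjusted p = 0.00366, and log2 -1.03, adjusted p = 0.00305). Slc25a13, the aspartate-glutamate carrier, was at -0.83 (adjusted p = 0.00762) and -0.69 (adjusted p = 0.0353), Glul, glutamine synthetase, at -0.49 (adjusted p = 0.00196) in diet with DFMO, and Slc38a1, another glutamine transporter, at 0.32 (adjusted p = 0.0231) there.

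Of 14 genes of the ornithine and arginine node, 4 rose and 1 fell in diet with DFMO (median log2 0.25; 32.2% of all genes called), and 2 rose and 1 fell in DFMO (median -0.03; 18.1% called), shares near those of all genes. Azin1, the antizyme inhibitor that frees ornithine decarboxylase, was at 60.6 ± 11.7 CPM in diet with DFMO, 57.8 ± 17.1 in DFMO and 25.0 ± 5.44 CPM in control tumors (SD, n = 5 each; log2 1.27, adjusted p = 0.000102, and log2 1.19, adjusted p = 0.000692). Odc1, the enzyme DFMO inhibits, was at 645 ± 95.6 CPM in diet with DFMO and 467 ± 22.3 CPM in control tumors (log2 0.47, adjusted p = 0.0237). Nos1, a nitric oxide synthase, differed by 1.09 (adjusted p = 0.00289) and 0.93 (adjusted p = 0.0173). Asl, which makes arginine from argininosuccinate, was at 1.06 (adjusted p = 0.0216) in diet with DFMO, with a wide spread there (66.1 ± 32.2 CPM, against 31.6 ± 5.89 CPM in control tumors).

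Of 21 other ATF4 targets tested, 2 rose and 6 fell in diet with DFMO against control (median log2 -0.06), beside 32.2% of all genes called and 15.5% called lower. In DFMO 0 rose and 8 fell (median -0.37), beside 18.1% called and 8.84% called lower. Ddit4, an mTORC1 inhibitor, was at 15.0 ± 1.63 CPM in diet with DFMO, 23.3 ± 7.38 in DFMO and 41.4 ± 5.13 CPM in control tumors (SD, n = 5 each; log2 -1.47, adjusted p = 8.13e-06, for diet with DFMO). The tRNA synthetases Aars and Nars were at -0.54 (adjusted p = 6.70e-05) and -0.50 (adjusted p = 0.000645), while Eif4ebp1, a repressor of cap-dependent translation, was at 0.90 (adjusted p = 0.00750). Of 11 p53 targets, 2 rose and 2 fell in diet with DFMO (median 0.70; 32.2% of all genes called), and 1 rose and 2 fell in DFMO (median 0.45; 18.1% called). The risers named were Zmat3 (log2 0.85, adjusted p = 0.00203) and Sesn1 (log2 0.83, adjusted p = 0.00282), and Mdm2 (log2 -0.56, adjusted p = 0.00203) and Bax (log2 -0.43, adjusted p = 0.00532) fell. In footprints of diet against control, no gene of any of these lists passed in edgeR. In RNA of diet with DFMO against control, where 40.8% of all genes passed, 5 of 16 supply and use genes rose and 1 fell, 5 of 12 glutamate genes rose and 1 fell, and 5 of 15 ornithine and arginine genes rose and 0 fell. Of the ATF4 targets 10 of 22 rose and 2 fell in RNA there (median log2 0.79), and 8 rose and 2 fell in DFMO (median 0.57), against their footprint medians of -0.06 and -0.37. Over all genes, 23.1% were called higher in RNA of diet with DFMO, and 39.5% were called in DFMO, 21.9% as higher. The all-gene RNA medians were 0.31 and 0.28. Of the p53 targets 5 of 10 rose and 1 fell in RNA of both groups. These RNA counts include the low-complexity control libraries. The ATF4 composite element was in the promoter window of 1 of the 19 other ATF4 targets with a window (Aars).

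Across the 20 footprint libraries, the genes nearest to a member by the root mean square difference of centred log2 CPM (7372 or 7373 genes with a mean of at least 10 CPM) were as follows. Nearest to Aldh18a1 were Rplp2, Hnrnpa0 and Hnrnpm, at 0.12, 0.12 and 0.13 log2 units, where Aldh18a1 itself varied by 0.32 around its mean. Nearest to Pycr1 were Slc7a1, Casp2 and Lrp12, all at 0.23, where Pycr1 itself varied by 0.37. Nearest to Oat were Vps13b, Sel1l and Tox4 at 0.12 to 0.14, not far below the 0.16 by which Oat itself varied. The genes nearest to Prodh and Aldh4a1, Timm29 and Acaa1a, were 0.41 and 0.37 away, where these members themselves varied by 0.61 and 0.64. Among the members, Aldh18a1 and Pycr1 were the closest pair (0.27) and Prodh and Aldh4a1 the farthest (0.82). These distances share libraries and depth and are given as a description.

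The members also differ in their share of codons for the amino acids left out of the diet. Over 16759 coding sequences of the GENCODE M21 annotation with at least 100 codons, the median share of proline codons was 5.43% and that of arginine codons 5.52%. Aldh18a1 has 32 proline codons of 795 (4.03%) (22.4% of transcripts have a smaller share), and Pycr1 14 of 309 (4.53%). Prodh has 27 of 599 (4.51%), Oat 23 of 439 (5.24%) and Aldh4a1 34 of 562 (6.05%). For arginine, Prodh is high at 52 of 599 codons (8.68%) and Pycr1 low at 12 of 309 (3.88%), with Aldh18a1 at 52 of 795 (6.54%), Aldh4a1 at 30 of 562 (5.34%) and Oat at 23 of 439 (5.24%).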

How the data were processed

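Ribosome footprints (20 libraries) and RNA (19 libraries) of TH-MYCN mouse tumors were analysed from the table of transcript counts and the table of RPKM values that the authors deposited. The deposited counts are whole reads per transcript, and RPKM values are the authors' counts scaled by coding length and library total. The submitters' processing notes name cutadapt, HISAT2, Bowtie2 and GRCm38; versions, counting tool, strand setting and annotation are not given in the sources used. The libraries came from 20 mice, 19 with both assays. RNA and footprints of a mouse came from the same extract, per the labels, so these libraries are paired.

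Footprints and RNA were each fitted with edgeR 4.0.16 (filterByExpr, TMM scaling, robust quasi-likelihood F test) over all 4 groups, with p-values adjusted by Benjamini-Hochberg over all genes tested and a threshold of 0.05. Footprints relative to RNA were tested as the assay by treatment contrast over 39 libraries. The SE is the log2 change divided by the root of its F value. CPM uses TMM-adjusted totals; the log2 ratio adds a prior count of 2 to log2 CPM, and a tumor with no RNA count has no ratio. Alternatives were DESeq2 1.42.0, limma 3.58.1 on log2(RPKM + 0.1) and log2(RPKM + 1) for genes with a mean RPKM of at least 0.5, RLE scaling, no filter, fits without RNA libraries of under 14000 transcripts or unlike their own footprints, the mouse as a block and leaving out each mouse. A single scaling over both assays was chosen after seeing the data. The main edgeR fit of footprints, RNA and their ratio was tested on simulated counts, for diet with DFMO against control only. The simulation gave every gene the same spread and held no low-complexity libraries, and the alternatives were not simulated. The members, gene lists, marker lists and alternatives were chosen with earlier results of these data known. Up to 4 genes of each list are named, those with the smallest footprint p in diet with DFMO against control, and for each member the 3 genes of nearest footprint pattern. Counting error limits Prodh and Aldh4a1, with 3 to 46 footprint counts per library. Reads shared with near-identical copies or antisense transcripts cannot be told apart from a member's own. No protein sequence was used here, and the results of some listed genes are not reported here.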

Additional observations from a re-analysis of the deposited data

Results flagged for a closer look

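Of 56 sets of 4 or 5 tumors examined (each member's footprints, RNA and ratio in each group), 5 held a tumor whose gap to its nearest neighbour took up more of the group's range than Dixon's critical value (0.71 for 5 tumors). Chance gives this in about 1 in 20 sets. Diet mouse P5828, a low-complexity RNA library, accounted for 4. Its Aldh18a1 RNA was 23.1 CPM, against 56.6 to 62.1 CPM in the other diet tumors (gap 0.860 of the range), and its Prodh RNA was 5.54 CPM, against 2.04 to 2.99 CPM (gap 0.729). Its log2 ratio of footprints to RNA was 2.95 for Aldh18a1, against 1.22 to 1.70 in the others (gap 0.723), and 3.08 for Pycr1, against 0.28 to 0.66 (gap 0.865). The fifth was the Pycr1 ratio of diet with DFMO mouse PD5732, at 0.08 against 0.55 to 0.62 in the others of its group (gap 0.872). For PD5732, the footprints of at least 6 other mice were nearer to its RNA than its own.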

How the results depend on the processing

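Of the footprint calls, Aldh18a1 passed in both comparisons with control under each of the 5 other settings and without each mouse (log2 -0.61 to -0.40 in DFMO, -0.53 to -0.46 in diet with DFMO). Pycr1 in DFMO passed under the 5 settings (leaving out a mouse: -0.82 to -0.51). Uncalled Oat in diet with DFMO changed sign around 0 with RLE scaling (0.0017), no filter (0.0051), DESeq2 (0.0053) and limma (0.068 and 0.067 with pseudocounts of 0.1 and 1; leaving out a mouse: -0.046 to 0.059), and Prodh in diet ranged from -0.57 to 0.060. Limma called 1 member in diet with DFMO against diet with either pseudocount (leaving out a mouse: 0 to 1).

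RNA and the ratio against control rest on low-complexity libraries, and precision there is that of 1 other control library. Without the 4, RNA gave -0.16 (Aldh18a1), 1.43 (Aldh4a1) and -0.56 (Oat) in DFMO, -0.60 (Prodh) in diet, and 0.30 (Aldh18a1), 0.81 (Pycr1) and -0.10 (Oat) in diet with DFMO. Without all 7 doubted libraries these were -0.11, 1.44, -0.56, -0.59, 0.32, 0.74 and -0.12. Without the 3 unlike their own footprints, Aldh4a1 in DFMO (1.88) and Pycr1 in diet with DFMO (1.70) no longer passed. On RPKM with pseudocounts of 0.1 and 1, uncalled signs turned for Prodh in DFMO (1.36 and 0.48), Oat in diet (1.50 and 0.73) and Prodh in diet with DFMO (1.07 and 0.31). Oat in diet with DFMO, uncalled in the main fit, passed in 2 of the 8 other settings (log2 -0.12 to 2.85 over the 8). RLE scaling moved the median gene in RNA to 0.41 in DFMO and 0.48 in diet with DFMO, against 0.28 and 0.31 with TMM. Genes called in RNA without the 4 numbered 2369 in diet with DFMO, 2273 in DFMO and 7 in diet, against 5827, 5638 and 486 with all. Leaving out a mouse, ranges were 1.60 to 2.29 (Aldh4a1, DFMO), 1.02 to 1.89 and 1.42 to 2.36 (Aldh18a1 and Pycr1, diet with DFMO). For uncalled values they were -0.49 to 0.27 (Prodh) and -0.24 to 0.51 (Oat) in DFMO, -0.10 to 0.67 (Prodh) and -0.72 to 0.037 (Oat) in diet, and -0.69 to 0.065 (Prodh) in diet with DFMO.

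For the ratio without the 4 libraries, values were -0.40 (Aldh18a1), -2.06 (Aldh4a1), -1.15 (Pycr1) and 0.46 (Oat) in DFMO. They were -0.53, -1.32 and 0.22 (Aldh18a1, Pycr1, Prodh) in diet, and -0.81, -1.51, -1.27, 0.072 and 0.22 (Aldh18a1, Aldh4a1, Pycr1, Oat, Prodh) in diet with DFMO. Without all 7 they were -0.45, -2.06, -1.29 and 0.47, then -0.53, -1.32 and 0.22, then -0.83, -1.52, -1.20, 0.10 and 0.12. Without the 3, the diet calls ended (-1.29 and -1.93). Oat in diet turned negative on RPKM (-1.80 and -1.02). The mouse as a replicate block ended the same diet calls (Aldh18a1 -1.44, Pycr1 -2.11) and changed no other call of the ratio; the same 38 libraries without the block gave -1.27 and -1.95. Leaving out a mouse gave -1.87 to -1.08, -3.02 to -2.13 and -2.65 to -1.75 in DFMO (Aldh18a1, Aldh4a1, Pycr1), -1.83 to -1.02 and -2.57 to -1.67 in diet (Aldh18a1, Pycr1), and -2.30 to -1.49, -2.50 to -1.61 and -2.79 to -1.89 in diet with DFMO. The diet calls passed in 13 and 11 of 20 such fits and Aldh4a1 in diet with DFMO in 14. Oat ranged from -0.57 to 0.17 in DFMO and from -0.19 to 0.57 in diet. Between treated groups without the 4, RNA calls were 2 (against DFMO), 1 (against diet; 1 also without all 7) and 1 (interaction), and 1 for the ratio interaction (Oat, log2 -1.11); leaving out a mouse gave 0 to 1 in RNA and 0 to 2 in the ratio interaction. The cause of these changes was not tested.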
